A study of Rattus norvegicus with 10 samples.

Results

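Ribosomal protein genes were followed across 10 rat lacrimal glands, one array per gland. Members were chosen by gene symbol alone: a probe set belonged if its single platform symbol began with Rpl or Rps and a digit or with Rplp, or was Rpsa, with the Rps6k kinases, Rps19bp1, symbols with a hyphen and pseudogenes left out. This gave 61 probe sets for 42 genes, of 4736 genes with a symbol of their own on the array, and all 61 passed the filter on dim probe sets. A further 40 probe sets carried a ribosomal protein symbol joined with others and were left out by the rule. Of the 42 genes, 26 encode proteins of the large subunit and 11 of the small subunit. The other 5 are named as like another gene: Rpl3l, Rpl19l4, Rpl36al1, Rplp1l3 and Rps27l.

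The 5 denervated glands, titled Experimental 1 to 5, had lost their parasympathetic supply by a cut through the greater superficial petrosal nerve and were taken on day 7. The controls were 3 glands titled Contralateral Control, also of day 7, 1 gland titled Normal Unoperated, and 1 titled Sham-operated, of day 7. The titles were followed for the contralateral glands, whose descriptions put them on the ipsilateral side. The labels give no strain, age, genotype or drug, and do not say which glands share an animal, and p-values therefore reflect no more than how far these glands spread, which may be technical. Each gland is whole tissue, so more cells of a type and more RNA per cell cannot be told apart.

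A ribosome is built in the nucleolus from ribosomal RNA and a set of proteins, most of which are present in a single copy per ribosome. Messenger RNAs of ribosomal proteins commonly begin with a C followed by a run of pyrimidines, the terminal oligopyrimidine tract, through which growth signalling by the kinase mTOR controls their translation together. In a secretory gland, acinar cells carry dense rough endoplasmic reticulum, whose bound ribosomes make the secreted proteins of tears.

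The tract is shown because it is the sequence feature these genes are known to share. The 30 bases from 10 before the annotated start base to the 20th base from it are given for 9 members, from RefSeq's GRCr8 promoter table, 5′ to 3′ on the gene's strand. A tract was counted from any C that is followed by at least 4 further pyrimidines, also where more pyrimidines precede it. Capitals mark the stretch from such a C nearest to the annotated start, within 10 bases of it, to the end of the pyrimidine run. In Rpl19, Rpl22, Rpl35a, Rpl39, Rplp0 and Rps15 the run itself begins further upstream, in lower case.
Rpl22 (chr5:168117951-168117980, plus strand): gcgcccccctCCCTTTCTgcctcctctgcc
Rpl35a (chr11:81235002-81235031, minus strand): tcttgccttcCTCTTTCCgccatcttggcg
Rpl39 (chrX:121195877-121195906, minus strand): taatcgcgttCTTCCggcctgtcctttctc
Rpl27a (chr1:172974563-172974592, plus strand): cttggtgggCTCCTCCCTCTTTCTTTTCTg
Rpl19 (chr10:83519054-83519083, plus strand): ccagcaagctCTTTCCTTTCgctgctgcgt
Rplp0 (chr12:46718371-46718400, minus strand): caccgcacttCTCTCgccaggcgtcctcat
Rps15 (chr7:10068096-10068125, minus strand): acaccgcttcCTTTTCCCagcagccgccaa
Rps6 (chr5:106420521-106420550, minus strand): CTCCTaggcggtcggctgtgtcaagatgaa
Rps27l (chr8:76443648-76443677, plus strand): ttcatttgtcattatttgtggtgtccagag
Of the 42 members 38 were matched to the promoter table, and Rpl27, Rpl30, Rps29 and Rpl19l4 were not. The tract began exactly at the annotated start in 11 of 38 members, 28.9%, against 722 of 27457 genes in the table, 2.63%. It began within 10 bases of the start in 24 of 38 members, 63.2%, against 28.8% of all genes. Annotated starts can lie some bases from the true one, and no match says only that these letters are not in this window.

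Intensity differed between arrays in ways the groups do not explain. Median intensity ran from 554 to 979, and pairs of arrays correlated across probe sets by 0.715 to 0.912 (log2). The glands contralateral 1, sham and denervated 1 stood apart on the first principal component of all tested probe sets (-50.0, -54.3 and -51.7, against -5.3 to 38.2 in the others). Denervated 2 and 5 lay highest on the second (31.1 and 70.1). Of 10 acinar markers 7 were on the array, and 6 of them lay above the floor in every gland, while Csap1 was at the floor in contralateral 1, between 8.63 and 13.08 in 7 other glands, and at 16.31 and 16.66 in denervated 2 and 5. Of these 7 markers 3 had a higher and 4 a lower mean in denervated glands, and their mean log2 difference from controls ran from -0.63 to 0.45 in denervated and from -0.26 to 0.23 in control glands. Dnase1, a secreted nuclease, was at 19.24, 19.46 and 18.33 in contralateral 1, sham and denervated 1 and between 9.57 and 13.90 elsewhere. Slc12a2, an ion cotransporter, was at 13.25 and 13.63 in denervated 2 and 5 and between 11.38 and 12.11 elsewhere. Bhlha15, a transcription factor of secretory acinar cells, was at 12.12 and 12.63 in denervated 2 and 5 and between 14.67 and 16.65 elsewhere. Rab3d, unlike these, did follow the groups, at 11.60 to 12.83 in denervated and 12.85 to 12.92 in control glands. All its denervated values lay below all controls, denervated 3 only just, as for 1.03% of tested probe sets. Its log2 difference of -0.53 ± 0.26 (SE) did not pass (limma adjusted p = 0.522).

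The first comparison set the 5 denervated glands against all 5 control glands. Ribosomal protein genes had a higher mean in denervated glands for 39 of 42 members, with a median log2 difference of 0.34, a 1.26-fold higher level, and a range from -0.58 to 0.88. Over all 6118 tested probe sets 44.6% were higher, with a median of -0.08. All 26 large subunit genes had a higher mean, with a median of 0.36, except that Rpl6, Rpl18 and Rpl19 were lower after quantile normalization. All 11 small subunit genes had a higher mean, with a median of 0.37, under the deposited, quantile and median scalings. The 5 genes named as like another gene had 2 higher and 3 lower, with a median of -0.05.

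No single member passed the test. By limma 0 of 42 members and 0 of 6118 probe sets had an adjusted p under 0.05, the background being 0%, and the lowest adjusted p among members was 0.437. At an unadjusted p under 0.05, 7 of 42 members, 16.7%, were higher, against a background of 5.02%, and 0 were lower, against 4.66%. This count rested on single glands: it was 2 without denervated 2 or denervated 5, 3 without contralateral 2, contralateral 3 or sham, 4 without denervated 4 and 11 without denervated 3. It was 0 without both denervated 2 and 5, and 3 without a variance trend. The groups did not overlap, with all denervated above all control glands, for 2 members, 4.76%, against 0.637% of all tested probe sets. All denervated glands lay below all controls for 0 members, against 1.03% of probe sets.

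**Figure D1:**
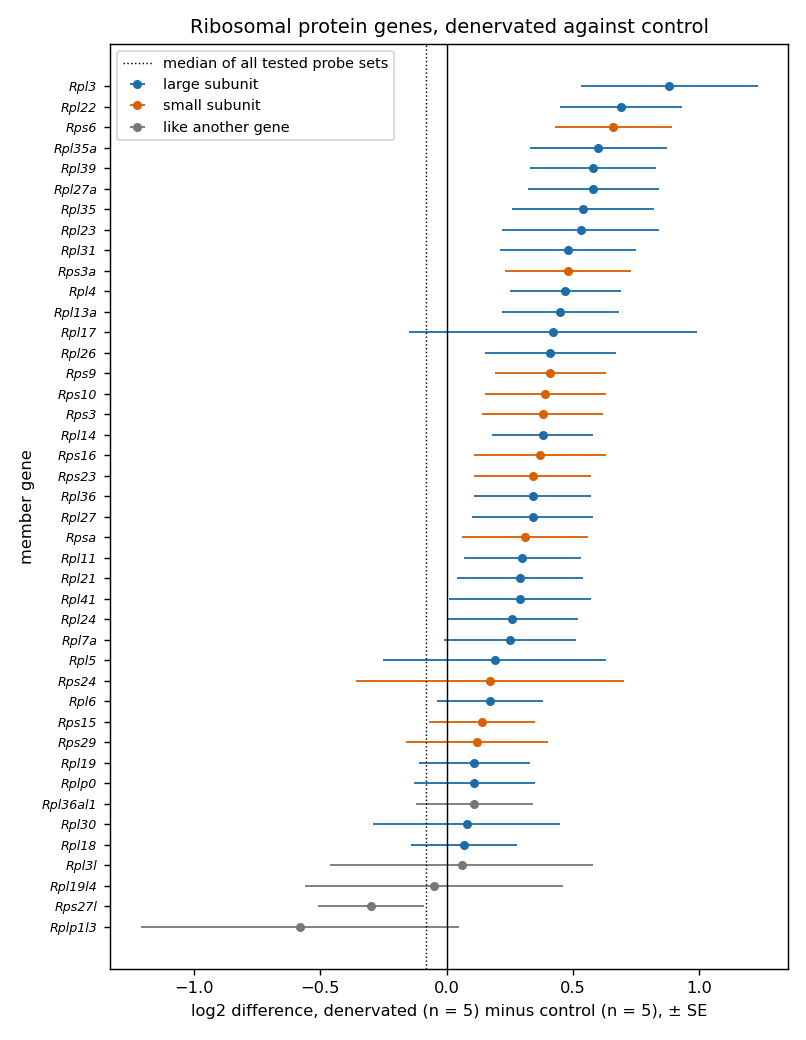
Log2 difference between denervated (n = 5) and control glands (n = 5) on the horizontal axis for each of the 42 member genes, with bars of ± 1 SE, colored by subunit; the dotted line is the median of all tested probe sets, -0.08. On this deposited scaling all 26 large and 11 small subunit genes lie to the right of 0 (Rpl6, Rpl18 and Rpl19 do not after quantile normalization), and the 3 members to the left of it are Rps27l, Rplp1l3 and Rpl19l4.

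Among large subunit genes, Rpl22, an RNA-binding protein of the ribosome's surface, had log2 intensities of 16.09, 16.86, 16.07, 16.60 and 17.01 in denervated 1 to 5, 15.68, 16.01 and 15.69 in contralateral 1 to 3, 16.04 in the unoperated and 15.77 in the sham gland. All denervated glands lay above all controls, denervated 1 and 3 only just. The means were 16.53 ± 0.43 (SD, n = 5) and 15.84 ± 0.18 (SD, n = 5), a log2 difference of 0.69 ± 0.24 (SE) or 1.61-fold, which did not pass (limma adjusted p = 0.437).

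Rpl3, a protein close to the ribosome's catalytic centre, had the largest difference of the members. Its log2 intensities were 16.54, 17.80, 17.06, 17.47 and 18.52 in denervated 1 to 5, 16.50, 16.62 and 17.10 in contralateral 1 to 3, 16.71 in the unoperated and 16.05 in the sham gland. Denervated 2, 4 and 5 lay above every control, while denervated 1 and 3 lay within the control range. The log2 difference was 0.88 ± 0.35 (SE), 1.84-fold (limma adjusted p = 0.451), and at the other Rpl3 probe set it was 0.54 ± 0.24. At that second probe set the 5 denervated glands lay above all controls.

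Rpl39, a small protein of the exit tunnel, had log2 intensities of 14.54, 15.35, 14.59, 15.07 and 15.49 in denervated 1 to 5, 14.11, 14.43 and 14.02 in contralateral 1 to 3, 14.71 in the unoperated and 14.86 in the sham gland. Denervated glands lay above the contralateral glands, and denervated 1 and 3 lay below the unoperated and sham glands. The log2 difference from all controls was 0.58 ± 0.25 (SE) (limma adjusted p = 0.486).

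Rpl35a, a large subunit protein, had log2 intensities of 15.28, 15.92, 14.99, 15.63 and 16.39 in denervated 1 to 5, 15.45, 14.78 and 14.69 in contralateral 1 to 3, 15.31 in the unoperated and 14.95 in the sham gland, a difference of 0.60 ± 0.27 (SE). Denervated 2, 4 and 5 lay above all controls. Rpl27a had 17.30, 17.53, 17.32, 17.53 and 18.41 in denervated 1 to 5, 17.24, 17.08 and 16.97 in contralateral 1 to 3, 17.04 in the unoperated and 16.89 in the sham gland, a difference of 0.58 ± 0.26 (SE). The groups of Rpl27a did not overlap, and denervated 5 stood well above the rest.

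Rpl4, which lines the exit tunnel, had log2 intensities of 15.49, 15.80, 15.00, 15.61 and 15.87 in denervated 1 to 5, 14.89, 15.02 and 14.89 in contralateral 1 to 3, 15.37 in the unoperated and 15.24 in the sham gland, a difference of 0.47 ± 0.22 (SE). All denervated glands but denervated 3 lay above all controls. Rpl13a, which also takes part in translational silencing of inflammatory transcripts, had 15.32, 16.09, 15.56, 15.31 and 16.15 in denervated 1 to 5, 15.44, 15.10 and 15.05 in contralateral 1 to 3, 15.21 in the unoperated and 15.35 in the sham gland, a difference of 0.45 ± 0.23 (SE). Here denervated 1 and 4 lay within the control range.

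The other large subunit genes had smaller or less precise differences. Log2 differences were 0.54 for Rpl35, 0.53 for Rpl23, 0.48 for Rpl31, 0.42 for Rpl17, 0.41 for Rpl26 and 0.38 for Rpl14. Single glands moved these values: without denervated 5 they were 0.25 for Rpl23, 0.26 for Rpl31, 0.24 for Rpl26 and 0.35 for Rpl35, and Rpl17 was at 0.06 without denervated 1 and 0.83 without denervated 3. Log2 differences were 0.34 for Rpl27 and Rpl36, 0.29 for Rpl21 and Rpl41, 0.26 for Rpl24 and 0.25 for Rpl7a. Rpl5 and Rpl11, which bind the p53 regulator Mdm2 when ribosome assembly is disturbed, differed by 0.19 and 0.30. Rpl30 differed by 0.08. Rpl6, Rpl19 and Rpl18 had log2 differences of 0.17, 0.11 and 0.07 on the deposited scaling and of -0.01, -0.04 and -0.09 after quantile normalization. Rplp0, the base of the stalk that recruits elongation factors, differed by 0.11.

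Among small subunit genes, Rps6, the substrate that S6 kinases phosphorylate downstream of mTOR, had the smallest unadjusted p of all members in this comparison. Its log2 intensities were 15.91, 16.72, 16.26, 16.69 and 16.85 in denervated 1 to 5, 15.81, 16.02 and 15.84 in contralateral 1 to 3, 15.63 in the unoperated and 15.82 in the sham gland. Denervated 2 to 5 lay above every control, and denervated 1 lay below contralateral 2. The means were 16.49 ± 0.39 (SD, n = 5) and 15.82 ± 0.14 (SD, n = 5), a log2 difference of 0.66 ± 0.23 (SE) or 1.58-fold (limma adjusted p = 0.437), with 0.44 ± 0.21 at its other probe set.

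The remaining small subunit genes differed by 0.48 for Rps3a, 0.41 for Rps9, 0.39 for Rps10, 0.38 for Rps3, which also acts in DNA repair, 0.37 for Rps16 and 0.34 for Rps23, a protein of the decoding centre (all log2). Rpsa, also known as the laminin receptor, differed by 0.31, Rps24 by 0.17, Rps15 by 0.14 and Rps29 by 0.12. The 11 small subunit genes thus spanned 0.12 to 0.66. Without denervated 5, Rps3a was at 0.31, Rps3 at 0.23, Rps16 at 0.22, Rps23 at 0.21 and Rpsa at 0.20, and without denervated 2 Rps10 was at 0.24.

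The 3 members with a lower mean in denervated glands all carry names that mark them as like another gene. Rps27l, a paralog of Rps27 known as a p53 target, had log2 intensities of 15.22, 14.91, 15.55, 15.67 and 15.33 in denervated 1 to 5, 15.36, 15.77 and 15.57 in contralateral 1 to 3, 15.91 in the unoperated and 15.57 in the sham gland. Denervated 1, 2 and 5 lay below all controls, and the difference was -0.30 ± 0.21 (SE) (limma adjusted p = 0.658). The lowest gland was denervated 2 and the highest the unoperated one.

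Rplp1l3 was dim, with 9.11, 7.29, 7.29, 7.29 and 9.60 in denervated 1 to 5, 8.36, 9.38 and 8.96 in contralateral 1 to 3, 9.23 in the unoperated and 7.55 in the sham gland. The 3 values of 7.29 are the floor, and the difference of -0.58 ± 0.63 (SE) is smaller than its error. Rpl19l4 had 13.42, 12.52, 13.41, 11.32 and 12.99 in denervated 1 to 5, 12.68, 11.89 and 11.69 in contralateral 1 to 3, 13.17 in the unoperated and 14.48 in the sham gland. Its difference was -0.05 ± 0.51 (SE) on the deposited scaling and 0.07 with median scaling. Rpl36al1 differed by 0.11 and Rpl3l, a paralog of Rpl3 known from muscle, by 0.06.

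**Figure D2:**
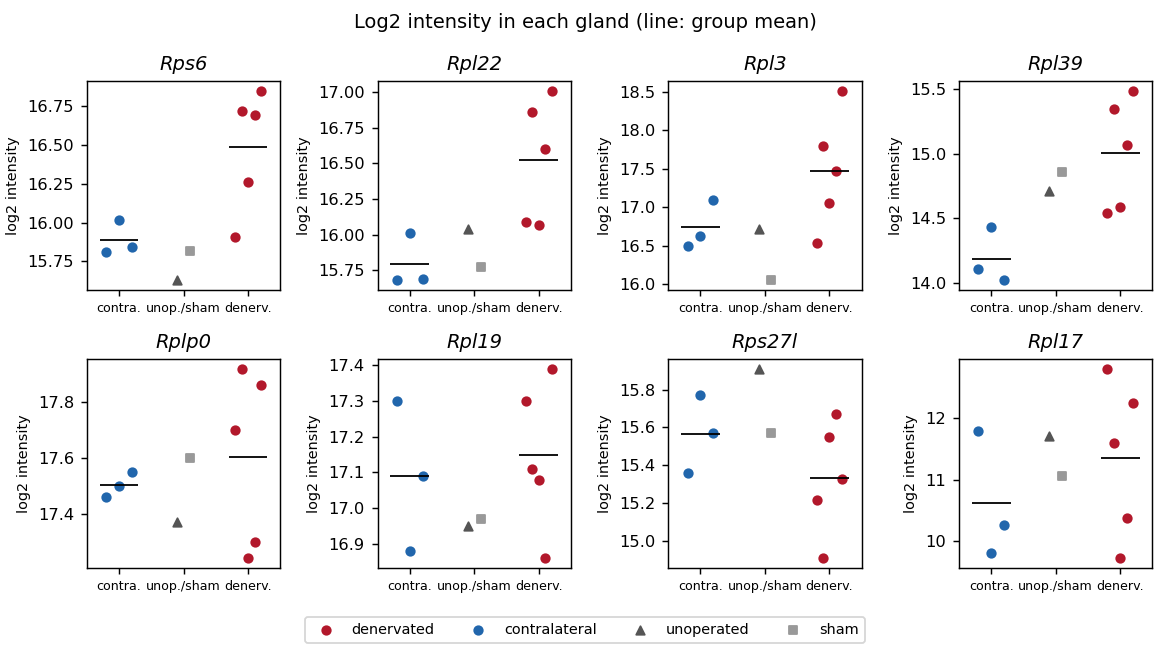
Log2 intensity (vertical axis, a separate range in each panel) of 8 members in every gland, with contralateral, unoperated or sham, and denervated glands along the horizontal axis and lines at the means of the contralateral (n = 3) and denervated glands (n = 5). The denervated glands lie above all controls for Rpl22, spread to both sides of the controls for Rplp0, and reach below them for Rps27l.

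The difference was carried unequally by the glands. Averaged over the 42 members, the log2 difference from the control mean was 0.32, 0.37, -0.11, 0.12 and 0.82 in denervated 1 to 5. It was 0.15, -0.16 and -0.15 in contralateral 1 to 3, 0.07 in the unoperated and 0.09 in the sham gland. Denervated 5 stood highest and denervated 3 and 4 lay inside the control range. Denervated 5 had the highest of the 10 values for 27 of 42 members, and no other gland did so for more than 4. It was above the member's own 10-gland median for 41 members, denervated 2 for 33, denervated 1 for 30, denervated 4 for 24 and denervated 3 for 9. In control glands this count was 20, 4 and 11 in contralateral 1 to 3, 18 in the unoperated and 20 in the sham gland.

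**Figure D3:**
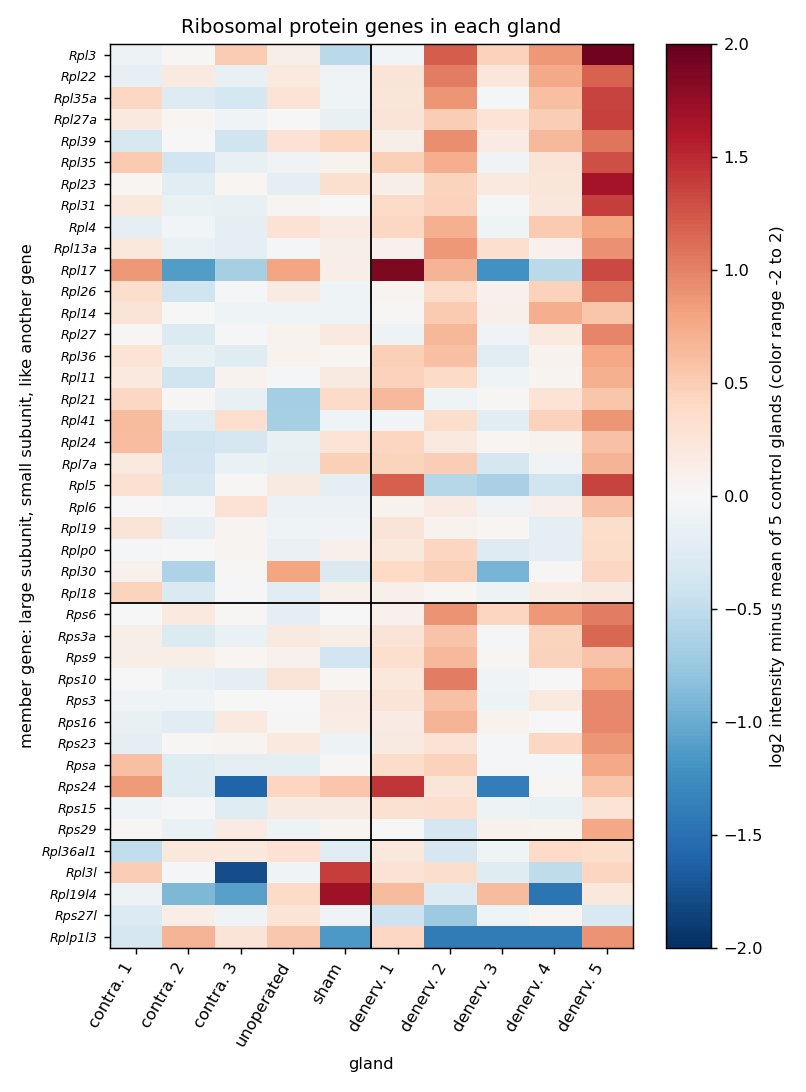
Log2 intensity of each member gene (rows, grouped as large subunit, small subunit and named as like another gene, and sorted by difference) in each gland (columns), as the difference from the mean of the 5 control glands, with colors limited to -2 to 2. The column of denervated 5 is the reddest, with 27 of 42 members at their highest there, and the dim members Rpl17, Rps24 and Rpl5 are highest in denervated 1 or 5.

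Without denervated 2 and 5, a choice made after the data were seen, 36 of 42 members were higher and the median was 0.11, against -0.07 over all tested probe sets. Without denervated 5 alone the median was 0.20 with 35 members higher. Rps6, Rpl22 and Rpl3 had log2 differences of 0.46, 0.42 and 0.43 without denervated 2 and 5, while Rplp0 stood at -0.08.

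The fibroblast, myoepithelial, blood, adipocyte and cell cycle lists stood high in denervated 2 and 5, and other lists did not all do so. In these glands skeletal muscle markers had mean log2 differences from controls of -0.65 and -0.88, and nerve markers of -0.27 and 0.92. For 11 tested of 12 fibroblast markers the mean log2 difference from controls was 1.90 in denervated 2 and 2.31 in denervated 5, against -0.43 to 0.61 in controls. For 6 of 8 myoepithelial markers it was 2.43 and 2.00 (controls -0.82 to 0.70), for 4 of 9 blood markers 1.72 and 1.5 (controls -1.35 to 0.67), for 4 of 6 adipocyte markers 1.61 and 1.87 (controls -0.70 to 0.45), and for 7 of 15 cell cycle genes 1.77 and 1.21 (controls -0.54 to 0.56). Over all 5 denervated glands these scores ran from -0.07 to 2.31 for fibroblast, -0.37 to 2.43 for myoepithelial, -0.69 to 1.72 for blood, -0.35 to 1.87 for adipocyte markers and -0.54 to 1.77 for cell cycle genes, and no marker on the array was at the floor in all glands. Within the fibroblast list Sparc went the other way, at 14.16 and 14.41 in denervated 2 and 5 and between 14.97 and 17.17 elsewhere. The blood marker Slc4a1, the adipocyte marker Lep and the cell cycle gene Mcm5 lay within the control range in both glands. Fabp4, of the adipocyte list, did so in denervated 2. Ccnb1, of the cell cycle list, was above all controls in denervated 2 (10.89) and below them all in denervated 5 (9.10, controls 9.39 to 10.75). Denervated 3 had a fibroblast score of 1.15 while its ribosomal score was -0.11. The part of these cells in the ribosomal result was not tested. In denervated glands 8 of 14 macrophage markers scored 0.29 to 0.56, 6 of 14 lymphocyte markers 0.28 to 0.68, 6 of 10 skeletal muscle markers -0.88 to 2.00 and 4 of 10 nerve markers -0.87 to 0.92, against -0.37 to 0.29, -0.78 to 0.46, -0.93 to 1.52 and -0.30 to 0.35 in controls.

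Most members are bright probe sets, and 33 of the 61 lay in the brightest 2% of the table, the part that a trimmed mean with that limit leaves out. The 169 other tested probe sets with a mean log2 intensity of at least 15.26, the lower quartile of the members, were higher in denervated glands for 60.9%, with a median of 0.14. In denervated 5 these bright probe sets averaged 0.10 above the control mean, where the members averaged 0.82, and in denervated 2 they averaged -0.11 against 0.37. Median scaling moved the median of all tested probe sets to 0.04 and that of the members to 0.46, a shift that such scaling gives to all probe sets of a gland alike, so the distance of 0.42 between them says nothing on scaling. With quantile normalization the members stood 0.26 above it, with a median of 0.22 and 36 of 42 higher.

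**Figure D4:**
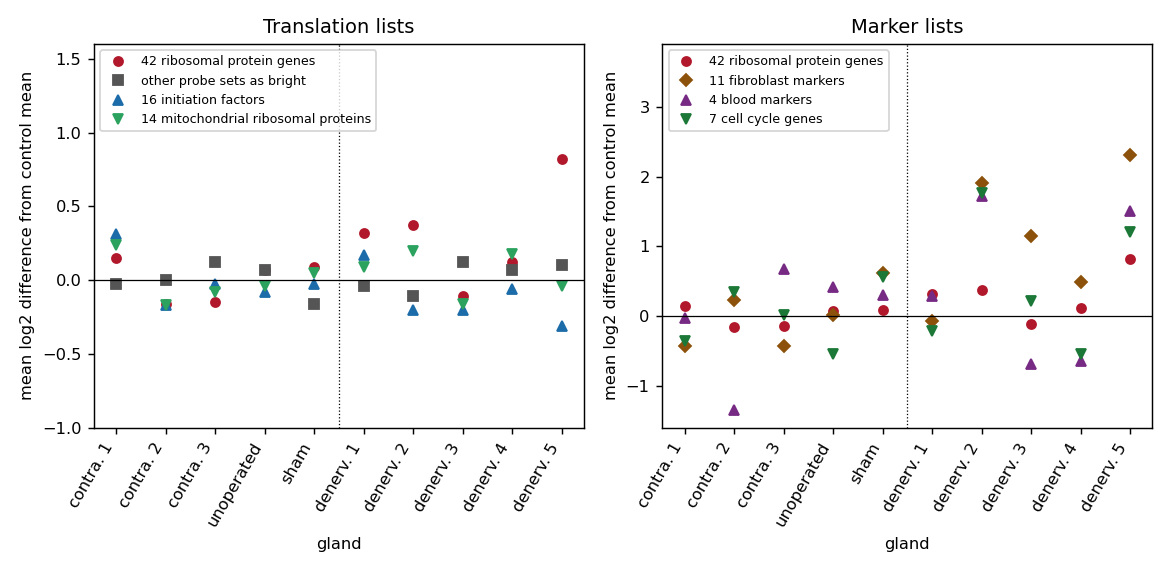
Mean log2 difference from the mean of the 5 control glands (vertical axis) in each gland (horizontal axis) for the 42 members beside other lists, on the left translation lists and other bright probe sets, on the right marker lists. The members stand at 0.82 in denervated 5, where the 169 bright probe sets stand at 0.10 and the fibroblast markers at 2.31.

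Members with dim probe sets had another order of glands. The 7 members with a mean log2 intensity below 13, a limit chosen after the data were seen, were Rpl17, Rps24, Rpl5, Rpl30, Rpl3l, Rpl19l4 and Rplp1l3. Averaged over them, denervated 1 to 5 stood at 0.89, -0.07, -0.74, -0.61 and 0.74 from the control mean and contralateral 1 to 3 at 0.31, -0.36 and -0.69, with 0.43 in the unoperated and 0.31 in the sham gland. Denervated 1 was thus highest here, whereas the 35 brighter members averaged 0.21 in it and 0.84 in denervated 5. Rpl17 had the largest spread of the members, with 12.80, 11.60, 9.72, 10.38 and 12.25 in denervated 1 to 5, 11.79, 9.81 and 10.26 in contralateral 1 to 3, 11.71 in the unoperated and 11.06 in the sham gland.

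Probe sets of one gene did not always run together. Of 16 members with several probe sets, Rps15 and Rpl3l had probe sets that differed in sign. Rps15 differed by 0.14 ± 0.21 (SE) and 0.52 ± 0.32 at 2 probe sets and by -0.30 ± 0.29 at the other. Rpl3l differed by 0.06 ± 0.52 and -1.15 ± 0.66. Rpl21 had 4 probe sets, all higher, at 0.29, 0.44, 0.58 and 0.68, the last with the smallest unadjusted p of any member probe set (0.00902). Ribosomal protein genes have many processed pseudogenes and near copies, whose transcripts such probe sets may not separate.

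The second comparison set denervated against the 3 contralateral glands. Here 40 of 42 members had a higher mean (37 after quantile normalization) and the median log2 difference was 0.40, where 49.5% of the 6118 probe sets were higher and the median was -0.01. All 26 large and 11 small subunit genes had a higher mean, with medians of 0.40 and 0.42, except that Rpl6, Rpl18 and Rpl19 were lower after quantile normalization. Others were lower when glands were left out: Rpl5, Rpl6, Rpl19, Rpl41 and Rps29 without denervated 5, Rpl41 without denervated 4, Rpl18, Rpl19 and Rpl41 without contralateral 2, and Rpl18 and Rps24 without contralateral 3. Without denervated 2 and 5, Rpl6, Rpl19, Rpl30, Rpl41 and Rplp0 were lower, and with array weights Rpl5 was. No member passed (0 of 42 and 0 of 6118 probe sets by limma, a background of 0%, lowest member adjusted p = 0.634). At an unadjusted p under 0.05, 4 members were higher, 9.52%, against a background of 4.15%, and 0 lower, against 3.01%. The count of 4 was 1 without denervated 2 or contralateral 3, 2 without contralateral 2, 6 without denervated 1 or denervated 3, and 1 without denervated 2 and 5 or without a variance trend.

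Those 4 were Rpl39, Rpl22, Rpl4 and Rps6, also among the 7 of the first comparison, which shares all the denervated and contralateral glands. Rpl39 differed by 0.82 ± 0.28 (SE), 1.77-fold, from a contralateral mean of 14.18 ± 0.21 (SD, n = 3) to a denervated mean of 15.01 ± 0.43 (SD, n = 5) (limma adjusted p = 0.634). Its unoperated and sham values, 14.71 and 14.86, lay between these means. Log2 differences were 0.73 ± 0.29 for Rpl22, 0.62 ± 0.25 for Rpl4 and 0.60 ± 0.28 for Rps6. Denervated and contralateral glands did not overlap for Rpl22, Rpl23, Rpl27a and Rpl39, 9.52% of members, against 2.19% of all probe sets, and 0 members had all denervated glands below, against 2.55%. Without denervated 2 and 5 the median of the members was 0.20, with 35 of 42 higher.

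Other genes of the ribosome's life were taken from lists. Rack1, a small subunit protein outside the symbol rule and the only one of 4 such symbols measured, differed by 0.47 ± 0.23 (SE) from all controls. Of 15 genes of elongation and with known oligopyrimidine tracts 8 were tested, 7 higher, with a median of 0.61. Those with the smallest p were Gas5, a host gene of small nucleolar RNAs (0.97 ± 0.32), Hnrnpa1, an RNA-binding protein (0.91 ± 0.34), and Vim, the intermediate filament of mesenchymal cells (1.11 ± 0.50). The elongation factor Eef1a1 differed by 0.53 ± 0.25, and these 4 of 8 had an unadjusted p under 0.05 and a higher mean, against a background of 5.02%. Without denervated 2 and 5 the median of this list was 0.51. Eef2, which moves the ribosome along, differed by -0.17 ± 0.27.

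Nucleolar and ribosome assembly genes, 12 tested of 39, were higher for 9, with a median of 0.25, led by Ncl, the nucleolar protein nucleolin (0.67 ± 0.22), with Gnl3 at 0.42 ± 0.30 and Polr1b at 0.44 ± 0.39. Of 16 tested of 40 initiation factors 6 were higher, with a median of -0.05, and Eif2b4, Eif5b and Eif2b3 differed by -0.53 ± 0.31, -0.59 ± 0.35 and -0.48 ± 0.29. Of the 14 genes of growth signalling tested from a list of 29, 5 were higher, with a median of -0.23, which was -0.40 without denervated 1 and -0.08 without sham. In that list Eif4ebp1, the mTOR target that holds back cap-dependent initiation, differed by -0.81 ± 0.28, Rheb, which activates mTOR, by -0.37 ± 0.23 and the kinase Eif2ak2 by 0.71 ± 0.47. The 14 mitochondrial ribosomal proteins were higher for 7, with a median of 0.05, and Mrpl44, Mrpl52 and Mrps6 differed by 0.61 ± 0.40, 0.93 ± 0.67 and -0.56 ± 0.42. No gene of these lists passed by limma. At an unadjusted p under 0.05, 1 of 12 nucleolar genes was higher and 1 of 14 signalling genes was lower. For initiation factors this count was 0 of 16 and for mitochondrial genes 0 of 14. The background over all tested probe sets was 5.02% higher and 4.66% lower.

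Against contralateral glands the medians were 0.62 for elongation and oligopyrimidine genes, 0.26 for nucleolar genes, -0.23 for initiation factors, -0.14 for growth signalling genes and -0.01 for mitochondrial ribosomal proteins. Differences between these lists and the ribosomal proteins were not tested.

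Because ribosomal protein mRNAs often serve as reference genes, their spread over the 10 glands was measured. The median SD of log2 intensity was 0.39 over the 42 members, and 0.82 over all tested probe sets. It was 0.37 over the 35 bright and 0.95 over the 7 dim members, and 0.47 over the 169 other probe sets at or above 15.26. The smallest SDs were 0.19 for Rpl19 and 0.21 for Rpl18 and Rps15. At its other probe sets, which are less bright, Rps15 had SDs of 0.60 and 0.50. Rpl19 had 17.30, 17.11, 17.08, 16.86 and 17.39 in denervated 1 to 5, 17.30, 16.88 and 17.09 in contralateral 1 to 3, 16.95 in the unoperated and 16.97 in the sham gland, with denervated 5 highest and denervated 4 lowest, so the groups overlapped. Rps15 had 16.76, 16.79, 16.34, 16.31 and 16.72 in denervated 1 to 5, 16.36, 16.42 and 16.21 in contralateral 1 to 3, 16.62 in the unoperated and 16.63 in the sham gland. For Rps15 denervated 1, 2 and 5 lay above all controls and denervated 3 and 4 within them. Rpl18 had 16.35, 16.29, 16.14, 16.39 and 16.43 in denervated 1 to 5, 16.69, 15.96 and 16.20 in contralateral 1 to 3, 16.03 in the unoperated and 16.35 in the sham gland. All denervated glands lay within the control range for Rpl18.

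Rplp0, a widely used reference, had an SD of 0.23, with 17.70, 17.92, 17.24, 17.30 and 17.86 in denervated 1 to 5, 17.46, 17.50 and 17.55 in contralateral 1 to 3, 17.37 in the unoperated and 17.60 in the sham gland. Denervated 1, 2 and 5 lay above all controls, and denervated 3 and 4 below them all. Of 16 usual reference genes 10 were measured, with a median SD of 0.74, from 0.27 for Sdha, 0.33 for Hprt1 and 0.34 for Actb to 1.34 for Polr2a. They were not matched to the members in brightness, so the medians of the SDs do not rank the 2 lists. Polr2a, Tbp and Tfrc were dim, with mean log2 intensities of 8.89, 9.15 and 9.65. Alas1 and B2m were bright, at 15.29 and 16.02, and had SDs of 1.08 and 0.90. Among the 10 reference genes Tfrc, Pgk1 and Actb had log2 differences from control glands of -0.88 ± 0.53, 0.40 ± 0.29 and 0.32 ± 0.24 (SE). Their median difference of 0.21 was 0.04 without contralateral 1, 0.07 without denervated 4 and 0.32 without contralateral 3 or denervated 5. At the other end of the members were Rpl17 with an SD of 1.06 and Rplp1l3 with 0.96, both dim.

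Many members, but not all, varied together. The first principal component over the 10 glands held 45.3% of the variance of the 42 members and 68.6% of that of the 35 brighter ones. It held 28.5% for all tested probe sets, and the share was not computed for other bright probe sets. Each member's correlation with the mean of the other members had a median of 0.713 and was above 0.7 for 23 of 42. It was -0.597 for Rps27l, 0.0589 for Rpl36al1, 0.128 for Rplp1l3 and 0.134 for Rpl19l4. Among 3579 other genes, those whose log2 intensity correlated best with the mean of the members over the 10 glands were Aldh3a1, an aldehyde dehydrogenase (r = 0.935), Msx1, a homeobox transcription factor (r = 0.915), and Man2a1, a mannosidase of the Golgi (r = 0.912). These are the highest of many values from the same 10 arrays and are given as a description. Msx1 was at the floor of 7.29 in contralateral 3 and denervated 3. Members with the tract exactly at their annotated start had a median log2 difference from control glands of 0.48 (11 genes), and the other matched members 0.31 (27 genes). Rps27l, Rplp1l3, Rpl3l and Rpl36al1, named as like another gene, are all among the 27. With the tract within 10 bases of the start the median was 0.41 (24 genes), and without it 0.29 (14 genes). These differences were not tested.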

How the data were processed

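The authors deposited probe set intensities on a linear scale. From the values, they had been scaled to a common level: with 2% trimmed at each end, array means spanned 0.0718% of their mean. Scanner software was not given in the sources used here. A floor of 156.2, the 20th percentile of the whole table, was applied before taking log2. The 59 array controls were left out, and 6118 of 8740 probe sets with a mean above the 30th percentile were tested with limma 3.58.1 in R 4.3.3 (lmFit, eBayes with a variance trend, two-sided, Benjamini-Hochberg over all 6118, threshold 0.05). The first comparison was fitted in 2 classes, the second in 3, where unoperated and sham formed 1 class. The number of arrays limits precision: the median standard error was 0.25 for members and 0.50 for all probe sets. Each gene is represented by its probe set with the highest mean. Symbols are those of the platform annotation. The steps were tested on simulated data.

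Members and lists were chosen with earlier results of these data known. Every member is named. Values in every gland are given for the 8 members with the smallest p in the first comparison, the 4 smallest in the second, members that were lower, those with the 3 smallest and 2 largest SDs, Rplp0 and Rps6. Up to 3 genes of each other list are named by smallest p. Lists have counts and medians only, with no set test. Further probe sets of Rpl3, Rps6 and Rpl21 were named after their values were seen. So were Eef1a1, Eef2, Sdha, Hprt1, Polr2a, Tbp, Alas1, B2m, Sparc, Slc4a1, Lep, Fabp4, Ccnb1, Mcm5, Bhlha15, Dnase1, Slc12a2, Rab3d and Csap1. Figures were drawn with matplotlib 3.10.9.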

Additional observations from a re-analysis of the deposited data

Results flagged for a closer look

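In 2 of 42 members 1 of the 5 denervated glands stood far from the others, with a gap of more than 0.71 of the group's range. Rpl23 was at 18.81 in denervated 5, with the next gland at 17.58, a gap of 0.793 of the range. Rpl27a was at 18.41 in denervated 5, with the next at 17.53 and a gap of 0.792. Chance marks about 1 in 20 such groups, and members of one gland are not independent.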

How the results depend on the processing

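The median member difference kept its sign under every alternative run, and no member passed under any. Leaving out each gland, it was 0.20 to 0.44 with 35 to 40 members higher against all controls, and 0.27 to 0.52 with 35 to 40 higher against contralateral glands; the lowest were without denervated 5. With 3 sets of arrays as a block it was 0.14 and 0.20, without denervated 2 and 5 0.11 and 0.20, and without contralateral 1, sham and denervated 1 0.45 and 0.52. These sets were chosen after the data were seen, and the cause was not tested. The numbers in the titles were not taken to pair the glands, because the labels do not say which glands share an animal. With group means removed, same-numbered glands correlated by 0.488, 0.0369 and 0.164. Such values cannot decide whether they share one, because glands can also be alike for other reasons. A replicate block on glands 1 to 3 gave 0.29 with 34 members higher and 0 probe sets passing.

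Over all probe sets the count past the threshold, 0 in both comparisons, was 0 to 70 against all controls (70 without denervated 1) and 0 against contralateral glands leaving out each gland. It was 1 against all controls with 3 sets of arrays as a block, and 1 against contralateral glands without a variance trend and with array weights. None of these was counted among members. Against contralateral glands the median of mitochondrial ribosomal proteins was 0.19 with array weights and -0.05 to 0.15 leaving out each gland, and that of growth signalling genes was -0.41 to -0.05 leaving out each gland and -0.43 without contralateral 1, sham and denervated 1.

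Against all controls, small member differences turned sign. With quantile normalization Rpl18, Rpl19 and Rpl6 were -0.09, -0.04 and -0.01, and with median scaling Rpl19l4 was 0.07. With array weights Rpl30, Rpl5 and Rps24 were -0.06, -0.14 and -0.08. The replicate block instead set denervated 1 to 3 against contralateral 1 to 3 only. In it Rpl18, Rpl36al1, Rpl41, Rpl5, Rpl6 and Rps29 were -0.02, -0.04, -0.22, -0.01, -0.02 and -0.11, and Rpl19l4 was 1.03. With 3 arrays as a block Rpl19l4 was 0.18. With 3 sets as a block Rpl19l4, Rpl30, Rpl3l and Rplp0 were 0.01, -0.16, -0.07 and -0.07. Without denervated 2 and 5 Rpl30, Rpl3l and Rplp0 were -0.17, -0.16 and -0.08. Without contralateral 1, sham and denervated 1 Rpl19l4, Rpl30, Rpl36al1 and Rpl5 were 0.31, -0.07, -0.16 and -0.03. Leaving out each gland, ranges that crossed 0 were -0.33 to 0.37 for Rpl19l4, -0.08 to 0.33 for Rpl30, -0.02 to 0.22 for Rpl36al1, -0.38 to 0.41 for Rpl3l, -0.10 to 0.39 for Rpl5, -0.23 to 0.56 for Rps24 and -0.05 to 0.23 for Rps29. None of these members passed under any setting.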
